A study of Mus musculus with 6 samples.

Results

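Hemidesmosomes are the junctions that hold basal keratinocytes to the basement membrane under the epidermis. The p65 ChIP–seq peaks at 9 genes of this adhesion system were examined: Col17a1, Lama3, Lamb3, Itga3, Itga6, Itgb1, Itgb4, Dst and Plec, out of 20923 protein-coding genes. A peak was taken as a member when the transcription start site nearest to its middle, among curated RefSeq transcripts of mm10, belonged to one of these genes. Peaks of other genes within 50 kb of a member's start site were listed separately. The rule found 16 of 8525 peaks in adult, 6 of 4169 in aged/control IgG and 13 of 6014 in aged/anti-IL17A/F.

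In ChIP–seq, DNA is recovered with an antibody to a protein bound on chromatin and then sequenced. The protein here was p65, the subunit of the transcription factor NF-κB encoded by Rela. The study asked whether p65 occupancy in epidermal cells changes with age and with blockade of the cytokines IL-17A and IL-17F. All mice were of the C57bl/6J strain. The adult mice were untreated and, by the general description of the adult animals, 17 to 25 weeks old. The aged mice were treated from week 73 of life, over 12 weeks, with a control IgG (aged/control IgG) or with antibodies that block both cytokines (aged/anti-IL17A/F). Epidermal cells were taken as a whole after trypsin separation from the dermis, so basal cells, which carry the hemidesmosomes, were not separated from other epidermal cells. The authors merged 4 mice per condition before peak calling, so each condition has 1 list without replicates. The conditions could not be tested against each other, and every difference below is a description of 3 pooled lists. The lists do not give the read depth behind a peak.

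In a hemidesmosome, the integrin α6β4 (Itga6 and Itgb4) and the transmembrane collagen XVII (Col17a1) span the basal membrane of the cell. Inside the cell, plectin (Plec) and the epithelial form of dystonin (Dst) tie them to keratin filaments. Outside, they bind laminin 332, which contains the products of Lama3 and Lamb3, and the integrin α3β1 (Itga3 and Itgb1) binds the same laminin outside hemidesmosomes. In skin, inherited loss of several of these proteins causes blistering, and collagen XVII is known for its part in the maintenance of epidermal stem cells.

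The peak names inside the adult list begin with "Treated", as do those of the aged/anti-IL17A/F list, and 0 of 4169 names in the aged/control IgG list do. The labels were kept as deposited. Were the lists exchanged, every value given below for adult would belong to aged/anti-IL17A/F and the reverse, so that adult would hold 13 member peaks and aged/anti-IL17A/F 16, Itga6 would be listed in aged/anti-IL17A/F only and Dst in adult only. The sign of each direct ratio between these lists would turn. For the full lists, the share of member peaks absent from aged/control IgG is also given for that case. Peaks were assigned to all 5 keratinocyte markers in adult (Krt5, Krt14, Trp63, Krt1 and Krt10), to 3 in aged/control IgG and to 4 in aged/anti-IL17A/F. None of 4 leukocyte and none of 3 melanocyte markers had a peak in any list. Of 5 fibroblast markers, 4 had no peak in any list (Col1a1, Col1a2, Col3a1 and Dcn), and Pdgfra had one in adult and aged/anti-IL17A/F. Of 2 endothelial markers, Cdh5 had none and Pecam1 had a peak in every list, the strongest about 40 kb from its start. A peak is not a measure of expression, and the cell makeup of the pools was not tested.

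The sequences below, read from RefSeq's GRCm38 (mm10), are those of the start sites and peaks that the results turn on. Each is written 5′ to 3′ on the strand of its gene. The first 3 run from 250 bases before to 50 bases after a start site, for Lamb3 (chr1:193301744-193302043, plus strand), Itga3 (chr11:95076665-95076964, minus strand) and Col17a1 (chr19:47691993-47692292, minus strand). Capitals mark a match to the NF-κB consensus motif in Lamb3 and the GC box GGGCGG in Itga3. The Col17a1 window holds no match to the NF-κB consensus motif, to the AP-1 motif TGANTCA or to GGGCGG.
Lamb3 promoter: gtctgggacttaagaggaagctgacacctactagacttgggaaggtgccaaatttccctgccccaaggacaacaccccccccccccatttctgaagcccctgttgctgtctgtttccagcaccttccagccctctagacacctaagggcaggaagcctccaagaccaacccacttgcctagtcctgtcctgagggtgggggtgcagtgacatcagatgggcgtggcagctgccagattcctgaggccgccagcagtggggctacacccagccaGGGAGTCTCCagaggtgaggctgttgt
Itga3 promoter: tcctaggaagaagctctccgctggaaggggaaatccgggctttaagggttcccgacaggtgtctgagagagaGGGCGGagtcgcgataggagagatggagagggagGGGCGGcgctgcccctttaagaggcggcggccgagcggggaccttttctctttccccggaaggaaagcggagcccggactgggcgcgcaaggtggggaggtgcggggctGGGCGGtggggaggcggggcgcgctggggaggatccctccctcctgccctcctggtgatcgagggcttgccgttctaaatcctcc
Col17a1 promoter: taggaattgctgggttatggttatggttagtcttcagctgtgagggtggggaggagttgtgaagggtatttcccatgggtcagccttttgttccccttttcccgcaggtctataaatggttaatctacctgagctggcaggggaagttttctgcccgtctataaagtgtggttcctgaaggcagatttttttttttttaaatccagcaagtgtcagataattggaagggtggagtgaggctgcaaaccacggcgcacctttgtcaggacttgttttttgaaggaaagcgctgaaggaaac

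The next 4 are 60-base windows around matches to the NF-κB consensus motif, in capitals, under distal, intronic and start-site peaks: upstream of Itga3 (chr11:95097083-95097142, minus strand), a Plec intron (chr15:76192906-76192965, minus strand), a Plec start site (chr15:76199727-76199786, minus strand) and an Itga6 intron (chr2:71837927-71837986, plus strand). In the Itga3 and the intronic Plec windows the match lies on the opposite strand, so the capitals show its reverse complement. The last is a window of 57 bases under the upstream peak of Col17a1 (chr19:47698398-47698454, minus strand), with a match to TGANTCA in capitals. The distal Itga3 window and that of the Plec start site belong to peaks of the adult list alone, and the Itga6 window to the aged/anti-IL17A/F list alone.
Itga3 upstream: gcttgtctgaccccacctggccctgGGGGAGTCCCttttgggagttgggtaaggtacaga
Plec intron: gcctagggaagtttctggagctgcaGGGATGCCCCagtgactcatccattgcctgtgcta
Plec start: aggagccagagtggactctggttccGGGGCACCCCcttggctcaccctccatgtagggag
Itga6 intron: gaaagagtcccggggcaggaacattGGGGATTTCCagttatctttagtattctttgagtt
Col17a1 upstream: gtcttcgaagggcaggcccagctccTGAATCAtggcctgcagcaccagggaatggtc

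p65 peaks were listed at 6 of the 9 genes in adult, 4 in aged/control IgG and 6 in aged/anti-IL17A/F. As background, 23.1% of all protein-coding genes had a peak in adult, 12.9% in aged/control IgG and 17.4% in aged/anti-IL17A/F, against 66.7% (95% Wilson interval 35.4 to 87.9), 44.4% (18.9 to 73.3) and 66.7% (35.4 to 87.9) of the 9 genes. The background share was below the lower bound for each list, but the 9 genes were chosen with results of these data known. Col17a1, Lamb3, Itga3 and Plec had a peak in every list, as did 11.4% of protein-coding genes. Lama3 had peaks in adult and aged/anti-IL17A/F, Itga6 only in adult, and Dst only in aged/anti-IL17A/F. An adult peak inside Dst was not counted, because the start of the microRNA gene Mir6896 lay nearer to it. A peak in adult and none in aged/control IgG was thus found at 2 of 9 genes (10.8% of protein-coding genes), and a peak in aged/anti-IL17A/F alone at 1 of 9 (1.49%). Itgb1 and Itgb4 had none in any list. The members differ in the number of curated start sites, from 1 in Col17a1, Itga6, Itgb1 and Itgb4 to 11 in Plec, and the part of start site number in these shares was not tested.

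**Figure D1:**
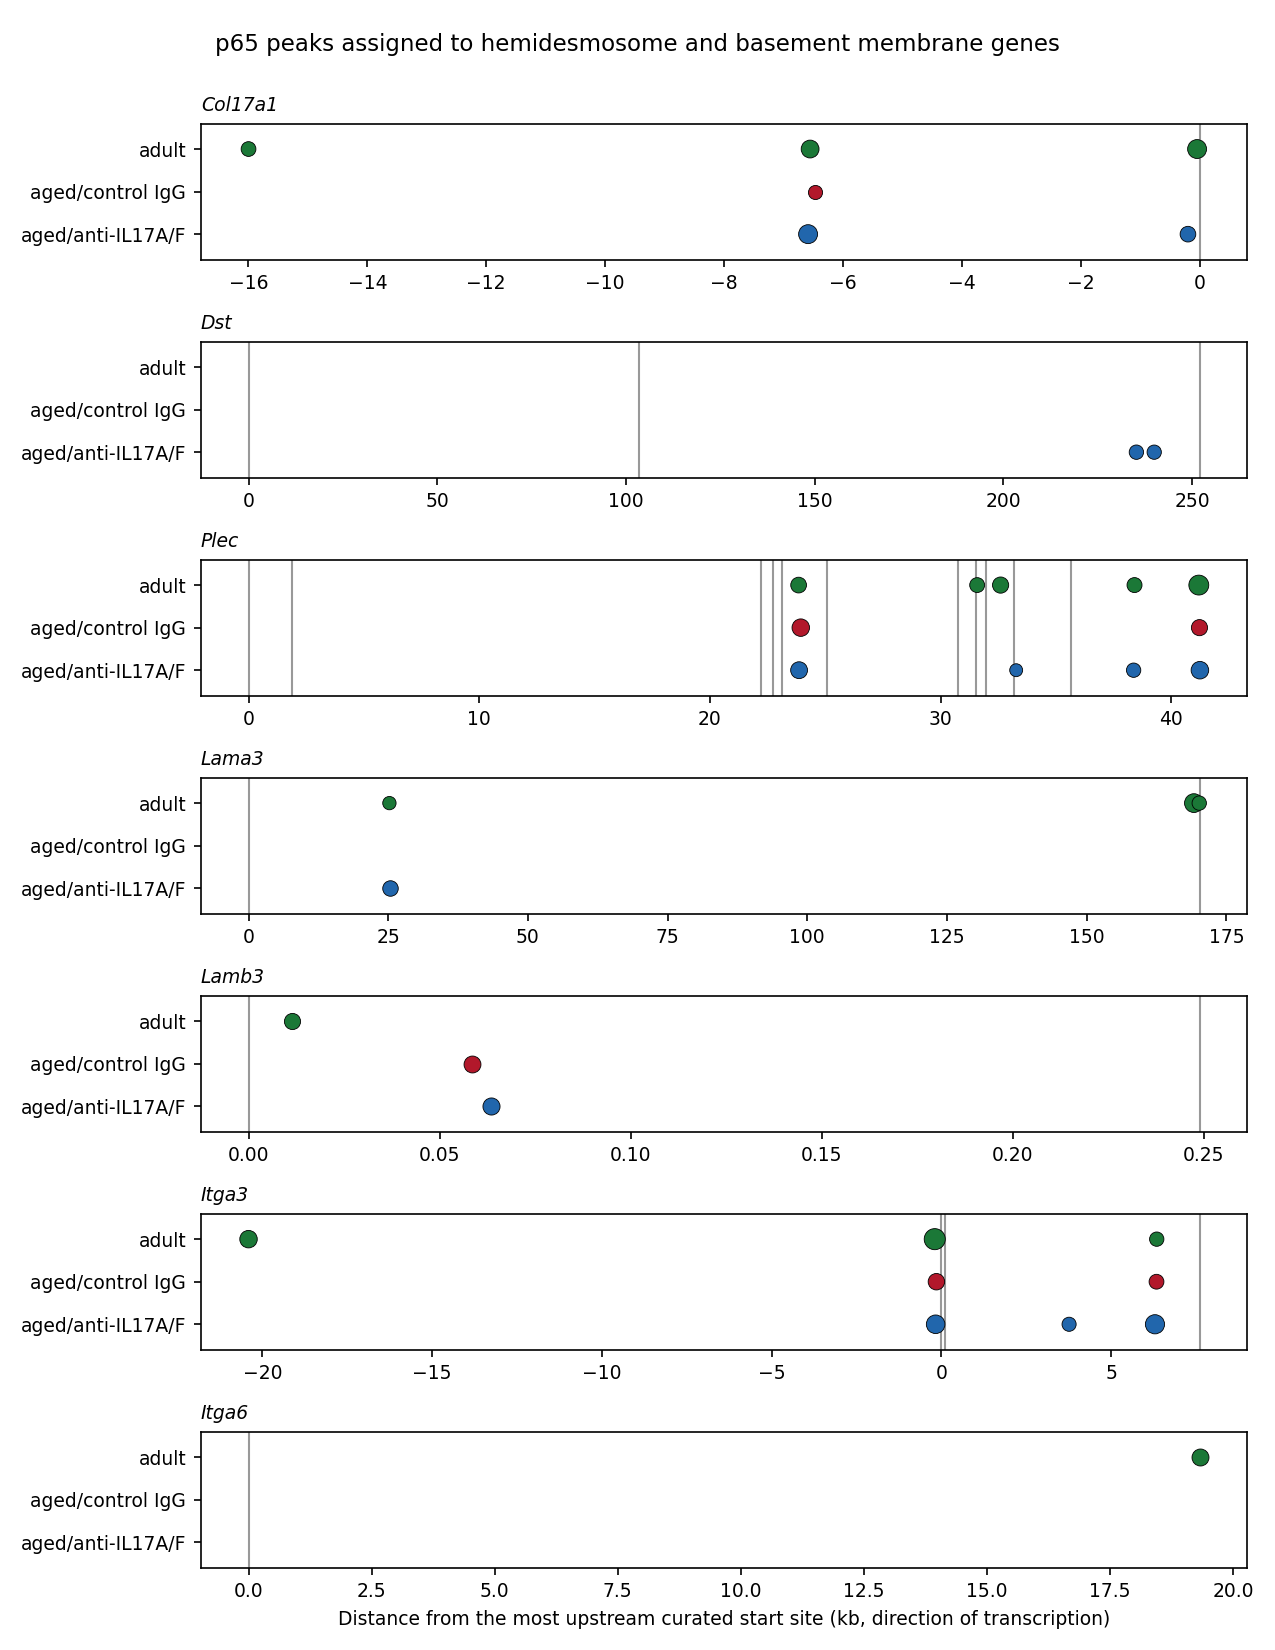
Positions of the assigned p65 peaks along the 7 genes with a peak, in kb from the most upstream curated start site in the direction of transcription. Each row is 1 peak list, grey lines are curated start sites, and the area of a circle is proportional to the fold enrichment. Lamb3 and Itga3 carry peaks of all 3 lists at a start site, whereas Dst has assigned peaks of aged/anti-IL17A/F only. An adult peak inside Dst is not drawn, because the start of the microRNA gene Mir6896 lay nearer to it.

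**Figure D2:**
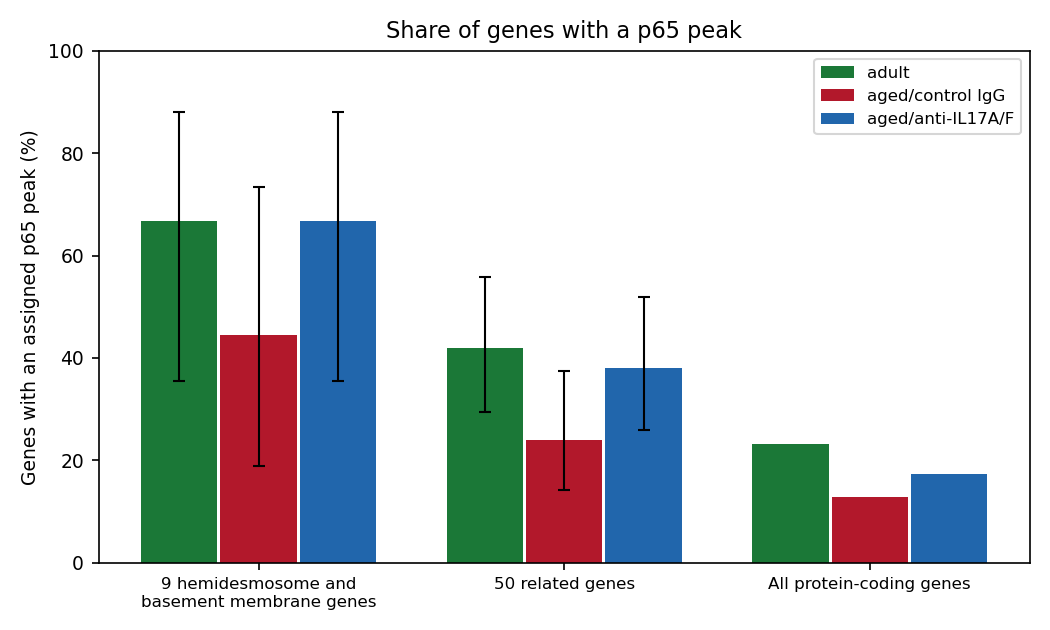
Percentage of genes with an assigned p65 peak in each list, for the 9 members, 50 related adhesion genes and all protein-coding genes. Error bars on the members and related genes are 95% Wilson intervals for counting error. In each group of genes aged/control IgG, the shortest list, has the lowest share. At equal list size the related genes numbered 13, 12 and 13.

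The peaks of the 9 genes fell at 20 separate sites. Of these, 6 had a peak in every list, 7 in adult only, 3 in adult and aged/anti-IL17A/F, and 4 in aged/anti-IL17A/F only. No site had a peak in aged/control IgG alone, and all 6 peaks of that list overlapped both an adult peak (93.3% of all its peaks did) and an aged/anti-IL17A/F peak (86.6%). Of the 16 adult peaks, 10 had no overlapping peak in aged/control IgG, which is 62.5% (38.6 to 81.5) against 54.5% of all adult peaks. Of those 10, 3 overlapped a peak in aged/anti-IL17A/F, which is 30.0% (10.8 to 60.3) against 35.4% of all such peaks. The other 7 overlapped no peak of either aged list, which is 43.75% of the 16 (23.1 to 66.8) against 35.2% of all adult peaks. Of the 13 aged/anti-IL17A/F peaks, 7 had no counterpart in aged/control IgG, which is 53.8% (29.1 to 76.8) against 40.1% of that list, and 4 had none in either other list (30.8%, 12.7 to 57.6, against 12.7%). The background share lay inside the members' interval in each of these except the last, where it was at the lower bound. The intervals treat peaks as independent, although several lie at the same gene, so they may be too narrow. With the adult and aged/anti-IL17A/F lists exchanged, 7 of 13 peaks (53.8%) were absent in aged/control IgG, against 40.1% of all peaks of the list that held them. Of these 7, 3 (42.9%, 15.8 to 75.0) were present in the other list, against 68.4% of all such peaks.

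The ligand comes first. Lamb3, the laminin β3 chain, had 1 site (chr1:193301776-193302235 in adult), which covered the upstream of its 2 start sites in every list. The fold enrichment over the local background was 3.35 in adult, 3.66 in aged/control IgG and 3.74 in aged/anti-IL17A/F. The 3 values were close, and each was in the middle of its list, at percentiles 41.1, 45.1 and 51.7. The middles of the peaks were 12, 59 and 64 bp downstream of the start, in an untranslated exon. All 3 peaks held the match GGGAGTCTCC (chr1:193302017-193302026), which begins 23 bp downstream of the start, within 100 bp of the summit. Lamb3 was the only member with such a match under peaks of all 3 lists within that distance.

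Lama3, the laminin α3 chain, has a start site for a long form and a second one far inside the gene for a short form. Around the second start lay 2 adult peaks that overlapped no peak of either aged list. The one at chr18:12502964-12503290, 1070 bp upstream of that start and in a coding exon of the long form, had a fold enrichment of 4.51 (percentile 70.3). In the same decile of the adult list by strength, 25.8% of peaks had no counterpart in aged/control IgG and 9.98% had none in aged/anti-IL17A/F. The other, at chr18:12503928-12504227, covered the start itself and was weaker, at 2.64 (percentile 10.4). In its decile most peaks were absent from the aged lists, with 87.6% absent in aged/control IgG and 69.6% in aged/anti-IL17A/F. Both adult peaks had TGANTCA within 100 bp of the summit. In an intron of the long form, 25212 bp from its start, an adult peak of 2.28 (chr18:12358932-12359360, percentile 2.16) overlapped an aged/anti-IL17A/F peak of 3.08 (percentile 27.0). No aged/control IgG peak was assigned to Lama3, and the nearest one lay 80824 bp from a Lama3 start, at Npc1.

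Of the receptors, Itga3, the integrin α3 chain, had the strongest of the 35 member peaks. That peak (chr11:95076764-95077250) covered the most upstream start site in every list. Its fold enrichment was 5.68 in adult (percentile 82.3), 3.47 in aged/control IgG (37.3) and 4.42 in aged/anti-IL17A/F (67.1). The site was therefore present in all lists, lowest in aged/control IgG and between the others in aged/anti-IL17A/F. All 3 peaks had GGGCGG within 100 bp of the summit, and none a match to the NF-κB consensus motif in the peak.

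A second Itga3 site lay in an intron 1272 bp upstream of the most downstream start (chr11:95070304-95070635 in adult). Its fold enrichment was 2.63 in adult, 2.81 in aged/control IgG and 4.71 in aged/anti-IL17A/F, at percentiles 9.87, 11.2 and 71.6. The first 2 were among the weak peaks of their lists and the last was in the upper part of its list. Another intronic peak, of 2.55 (chr11:95072895-95073207, percentile 6.29), was found in aged/anti-IL17A/F only. Upstream, 20406 bp from the most upstream start, an adult peak (chr11:95097059-95097375) had a fold enrichment of 3.91 (percentile 59.0) and no counterpart in either aged list. It held the match GGGACTCCCC on the plus strand. This intergenic peak also lay 22900 bp from the start of Dlx3, and was assigned to Itga3 as the nearer of the pair.

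Itga6, the integrin α6 chain, had 1 assigned peak, in adult only (chr2:71806052-71806484). It lay in an intron, 19329 bp downstream of the start, with a fold enrichment of 3.69 (percentile 53.2). In that decile of the adult list, 63.0% of peaks had no counterpart in aged/control IgG and 41.8% none in aged/anti-IL17A/F. A peak of aged/anti-IL17A/F (chr2:71837773-71838089, fold enrichment 3.53, percentile 45.2) also lay in an Itga6 intron, 50992 bp from the start and just outside the 50 kb limit, and its nearest start was that of Pdk1. It held the match GGGGATTTCC, which is shown above.

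The β chains had no peak. For Itgb1, the integrin β1 chain that pairs with many α chains, the nearest peak was 1244379 bp away in adult, 1541811 bp in aged/control IgG and 1540285 bp in aged/anti-IL17A/F. For Itgb4, the β4 chain found mostly in hemidesmosomes, the only peaks within 50 kb were those at the start of H3f3b, which encodes a histone H3 variant. They lay 49409, 49417 and 49403 bp from the Itgb4 start in adult, aged/control IgG and aged/anti-IL17A/F, just inside the limit, with fold enrichments of 6.42, 7.32 and 3.74. An adult peak at Unk, of 4.21, lay just outside it, at 53355 bp.

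Col17a1, the transmembrane collagen, had 3 sites, each with its middle upstream of the single start. The adult peak across the start (chr19:47691764-47692415) stood at 4.58-fold over the local background, with a −log10 q of 20.5. The aged/control IgG list had no peak there, and that of aged/anti-IL17A/F (chr19:47692092-47692394) had 3.14 with a −log10 q of 8.43 and lay 201 bp upstream of the start without covering it. The adult peak ranked at percentile 71.3 of its list and the other at 29.2 of its own, and the lists differ in length.

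At the second Col17a1 site, about 6.5 kb upstream, every list had a peak. The fold enrichment was 4.07 in adult, 2.56 in aged/control IgG and 4.59 in aged/anti-IL17A/F, and the percentiles were 62.6, 4.44 and 69.7. The adult and aged/anti-IL17A/F values were close, and the aged/control IgG peak was among the weakest of its list. The match TGAATCA printed above lay within 100 bp of the summit in aged/control IgG only, and the summits of the other lists lay further upstream. A further site, 15997 bp upstream (chr19:47707834-47708243), had a weak adult peak of 2.78 (percentile 16.1) and no other. None of the Col17a1 peaks held a match to the NF-κB consensus motif.

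Plec, the plakin that links integrin β4 and collagen XVII to keratin, had the most peaks, with 5 in adult, 2 in aged/control IgG and 4 in aged/anti-IL17A/F, and also has the most start sites. A peak in a coding exon (chr15:76189914-76190448 in adult), 5529 bp downstream of the nearest start, had a fold enrichment of 5.06 in adult, 3.34 in aged/control IgG and 3.95 in aged/anti-IL17A/F. Like that of the Itga3 start, it was highest in adult and lowest in aged/control IgG. Each of its 3 peaks held a match to the NF-κB consensus motif, but more than 100 bp from the summit.
An intronic Plec peak (chr15:76207227-76207833 in adult) showed another order, with 3.17 in adult, 3.91 in aged/control IgG and 3.64 in aged/anti-IL17A/F. The aged/control IgG value was the highest of the 3 there.

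The other Plec sites were weaker or found in fewer lists. One in an intron (chr15:76192789-76193147) was listed in adult at 2.87 and in aged/anti-IL17A/F at 2.63, both with the match GGGGCATCCC within 100 bp of the summit. That window, printed above, also holds a match to TGANTCA, left in lower case. Adult peaks that no other list had lay around the cluster of start sites, at chr15:76198383-76199164 (3.35, percentile 41.2) and chr15:76199595-76199985 (2.84, percentile 18.1), and the latter covered a start and held the match GGGGCACCCC. Beside them, aged/anti-IL17A/F alone had a peak of 2.14 across another start (chr15:76197947-76198250), at percentile 0.474 of its list.

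Dst, a plakin whose epithelial form lies next to plectin in hemidesmosomes, had assigned peaks in aged/anti-IL17A/F only. These 2 intronic peaks had fold enrichments of 2.65 (chr1:34143285-34143584) and 2.61 (chr1:34148003-34148302), and were at percentiles 9.18 and 7.91, 16825 and 12107 bp upstream of the most downstream start. Both were therefore in the weakest decile of their list. An adult peak of 4.71 (chr1:34077830-34078274) also lay within Dst, but its nearest start was that of the microRNA gene Mir6896 and it was 66457 bp from the nearest Dst start. The nearest aged/control IgG peak was 376738 bp away. With start sites of protein-coding genes alone, 7 of the 9 genes had a peak in adult (18 peaks), 4 in aged/control IgG (6 peaks) and 7 in aged/anti-IL17A/F (14 peaks), against 25.04%, 14.4% and 19.3% of protein-coding genes.

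By strength, the member peaks ranged from percentile 2.16 to 82.3 in adult, from 4.44 to 53.0 in aged/control IgG and from 0.474 to 71.6 in aged/anti-IL17A/F, with medians at 41.1, 34.4 and 29.2. The median fold enrichment was 3.35 in adult (range 2.28 to 5.68), 3.40 in aged/control IgG (2.56 to 3.91) and 3.14 in aged/anti-IL17A/F (2.14 to 4.71), against 3.60, 3.80 and 3.69 over all peaks. No member peak was in the strongest decile of any list, and 2 of 16, 1 of 6 and 5 of 13 were in the weakest. For reference, the strongest peak at Nfkbia, a feedback inhibitor and textbook target of NF-κB, had 20.6, 19.2 and 18.7 in the same order, and that at Tnfaip3, another, 13.8, 14.2 and 21.6. The strongest member peak was thus well below those of both reference genes in every list. The 6 adult member peaks with a counterpart in aged/control IgG had a median of 3.71 and the 10 without one 3.11. Over all adult peaks these medians were 4.92 and 3.13.

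**Figure D3:**
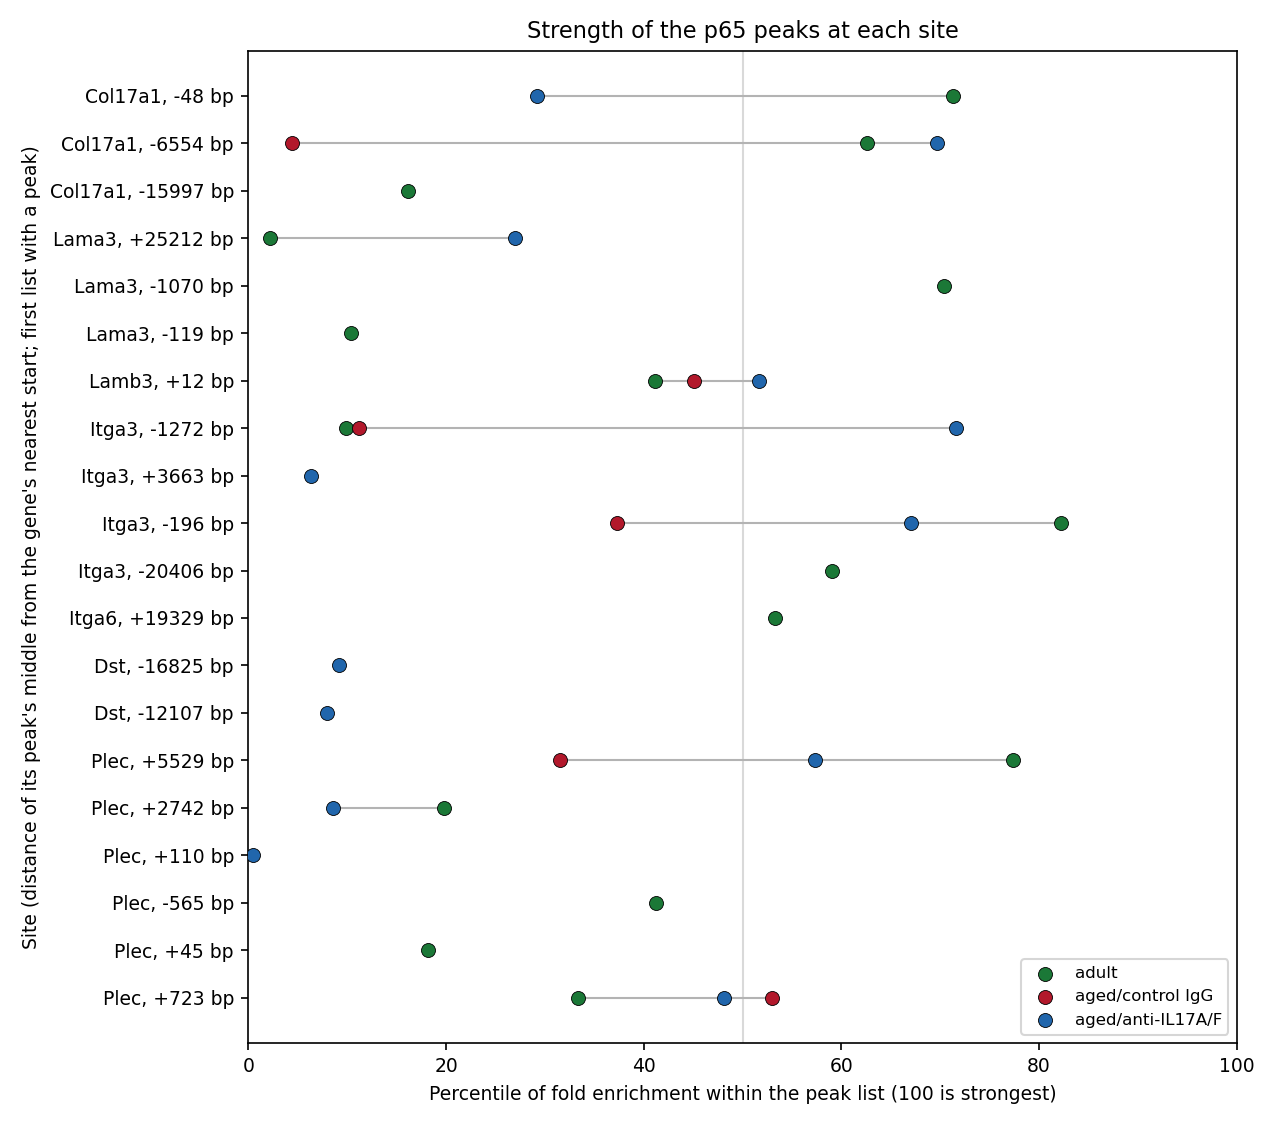
Percentile of the fold enrichment within its own peak list (0 weakest, 100 strongest) for each of the 20 sites, coloured by list, with a grey line joining lists that share a site. Sites are named by gene and by the distance of the peak's middle from the gene's nearest start site, negative when upstream. At Col17a1 −6554 bp the adult and aged/anti-IL17A/F points lie at 62.6 and 69.7 and the aged/control IgG point at 4.44.

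At the 6 sites present in every list, the fold enrichment in aged/control IgG relative to adult was lower at the Itga3 start (log2 ratio −0.71), the upstream Col17a1 site (−0.67) and the exonic Plec site (−0.60). It was higher at the intronic Plec site (0.30), Lamb3 (0.13) and the intronic Itga3 site (0.10). The members thus split evenly, with a median of −0.25. Over all 3879 overlapping pairs, 21.5% were higher in aged/control IgG, the median was −0.30, and the range from the 5th to the 95th percentile was −0.91 to 0.32, so that all 6 lay within it.

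In aged/anti-IL17A/F relative to aged/control IgG, 5 of the 6 sites were higher, as were 66.6% of all 3612 pairs. The values were 0.84 at the upstream Col17a1 site, 0.74 at the intronic Itga3 site, 0.35 at the Itga3 start, 0.24 at the exonic Plec site, 0.03 at Lamb3 and −0.10 at the intronic Plec site. Of all pairs, 90% lay between −0.44 and 0.73, so the Col17a1 and intronic Itga3 sites lay above that range, at percentiles 97.3 and 95.5. Both comparisons share the aged/control IgG list. The difference at these sites has no replicate check.
Directly between aged/anti-IL17A/F and adult, 5 of 9 shared sites were higher in aged/anti-IL17A/F (34.5% of 5146 pairs), with a median of 0.16 against −0.15. The intronic Itga3 site was the highest, at 0.84, percentile 99.6 of all pairs.

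**Figure D4:**
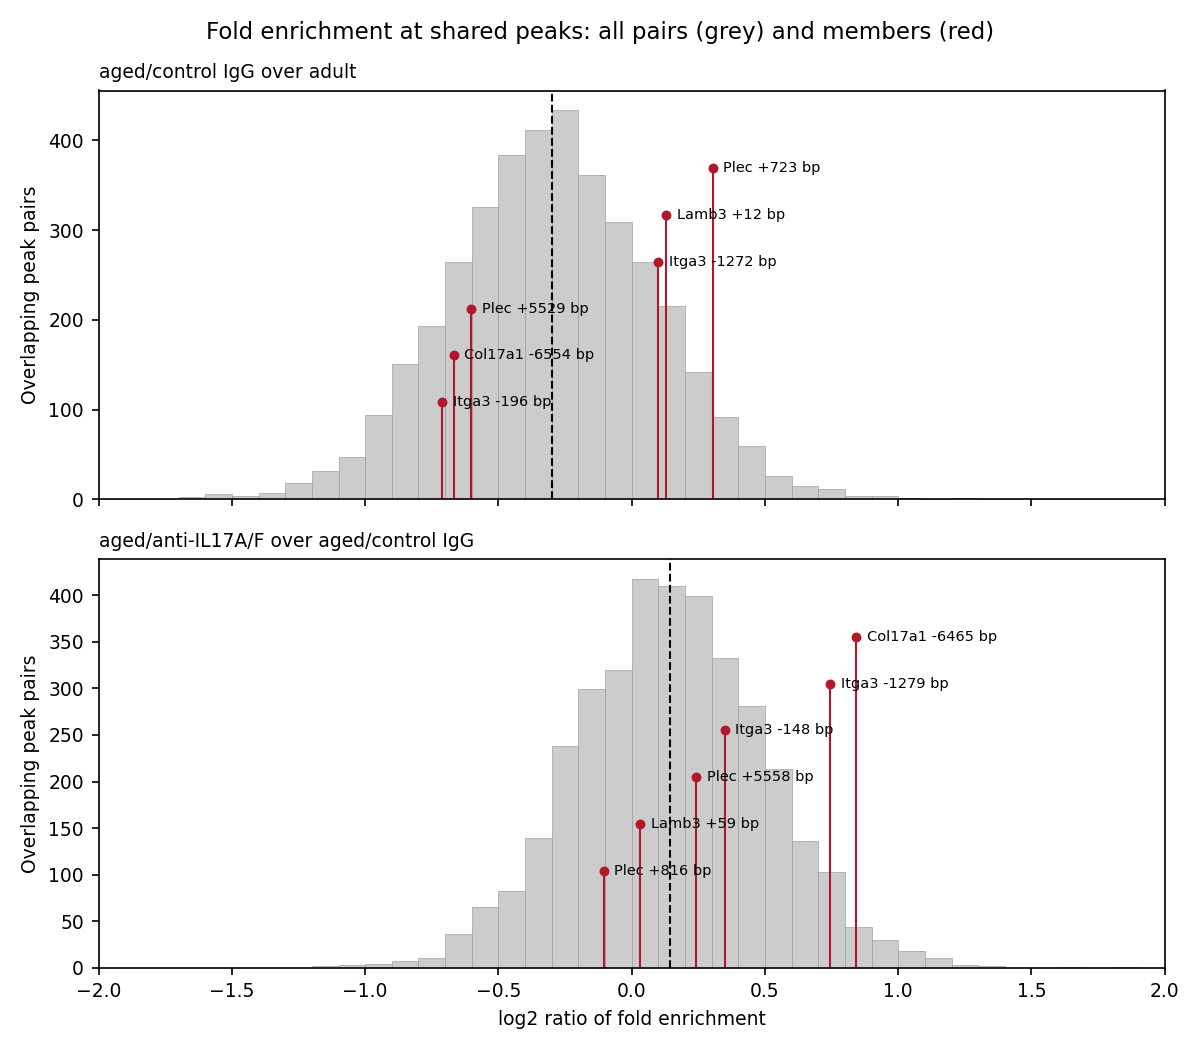
Histograms of the log2 ratio of fold enrichment at all overlapping peak pairs (grey), for aged/control IgG over adult (top) and aged/anti-IL17A/F over aged/control IgG (bottom), with the 6 member sites as red lines whose height has no meaning. The dashed line is the median of all pairs, −0.30 at the top and 0.14 at the bottom.

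Matches to the NF-κB consensus motif within 100 bp of the summit, on either strand, were found at 4 of 16 member peaks in adult (interval 10.2 to 49.5%), 1 of 6 in aged/control IgG (16.7%, 3.01 to 56.4) and 2 of 13 in aged/anti-IL17A/F (15.4%, 4.33 to 42.2). Over all peaks the shares were 28.5%, 37.8% and 34.9%, and in equally wide windows 2000 bp away on each side 2.18%, 1.95% and 2.26%. The background of all peaks lay inside each interval of the members. TGANTCA was found at 4, 1 and 2 member peaks (13.2%, 14.1% and 14.4% of all peaks) and GGGCGG at 3, 2 and 5 (25.9%, 23.0% and 23.4%). In all 32619 RefSeq promoter windows of 300 bases, the NF-κB consensus motif occurred in 4.53%, TGANTCA in 7.85% and GGGCGG in 35.9%. The 2 Plec peaks and 1 Itga3 peak with a match in adult, and the intronic Itga6 peak, are those whose sequences are printed above, beside Lamb3.

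Within 1 kb of a start site lay 7 of 16 adult, 3 of 6 aged/control IgG and 5 of 13 aged/anti-IL17A/F member peaks, against 40.0%, 35.8% and 36.7% of all peaks of protein-coding genes. Introns held 7, 2 and 7 of the member peaks and coding exons 2, 1 and 2. Peaks of other genes within 50 kb of a member start numbered 5, 2 and 3. In adult they were at Sfr1 (2 peaks near Col17a1), H3f3b (near Itgb4), and BC024139 and Parp10 (near Plec). The BC024139 and H3f3b peaks were found in every list, and Sfr1 had 1 peak in aged/anti-IL17A/F and none in aged/control IgG.

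The lists differ in size, so they were also reduced to the 4169 peaks of highest fold enrichment. Then 7 peaks at 5 genes remained in adult, 6 at 4 genes in aged/control IgG and 6 at 4 genes in aged/anti-IL17A/F. Of all protein-coding genes, 13.1%, 12.9% and 13.1% had a peak in these reduced lists, in the same order. The excess of adult peaks over aged/control IgG was therefore 1 peak at equal list size. Of the 7 adult peaks 4 (57.1%) had no counterpart in aged/control IgG, against 27.0% of all adult peaks so chosen. None of these 4 had a counterpart in aged/anti-IL17A/F, against 38.9% of all 1125 reduced-list adult peaks without one in aged/control IgG. The 3 adult peaks with a counterpart in aged/anti-IL17A/F but not in aged/control IgG, at Col17a1, Lama3 and Plec, were thus no longer such at equal list size. At Col17a1 the adult peak stayed, and its aged/anti-IL17A/F counterpart, at rank 4253, fell just beyond the cut. At Lama3 and Plec both peaks fell beyond it. Dst lost its peaks, and Lama3 and Itga6 kept 1 each, in adult only. Lamb3 lost its adult peak and kept 1 in each aged list, and Plec kept 1 in adult and 2 in each aged list.

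**Figure D5:**
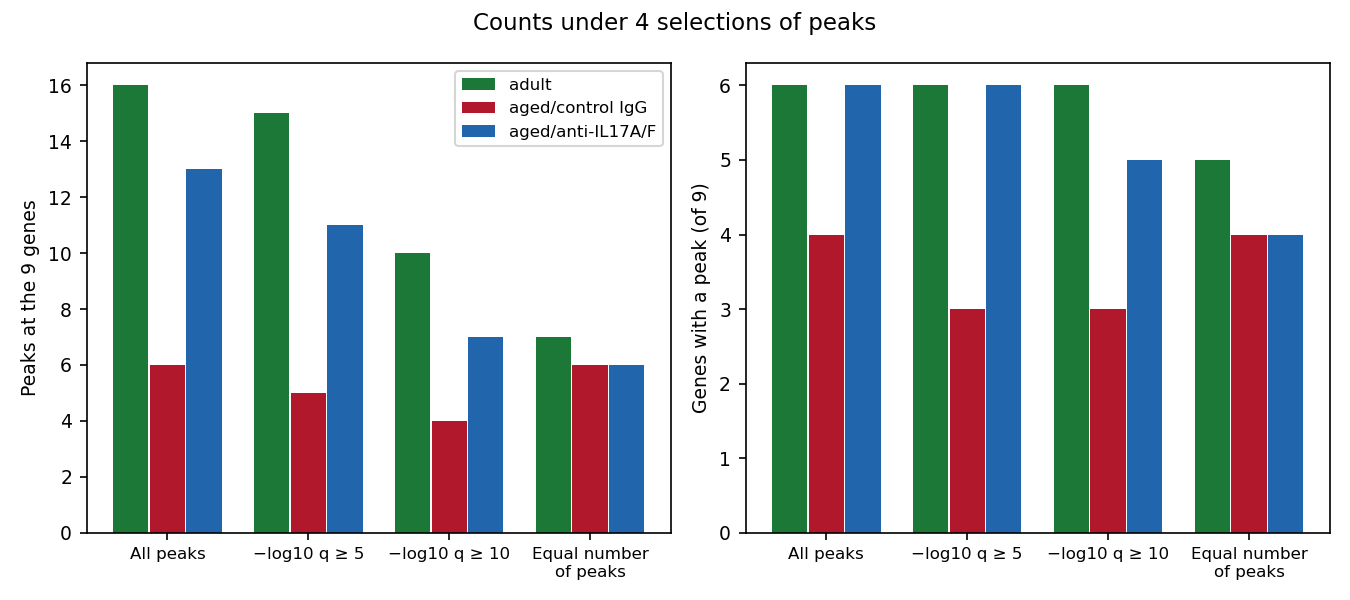
Number of peaks assigned to the 9 genes (left) and of genes with a peak (right) in each list, for all peaks, for peaks with a −log10 q of at least 5 or 10, and for the 4169 strongest peaks of each list. Adult has 16, 15, 10 and 7 peaks and aged/control IgG 6, 5, 4 and 6, so that the bars differ least at equal list size.

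Among 50 further genes of basement membrane and cell–matrix adhesion, 21 had a peak in adult (42.0%), 12 in aged/control IgG (24.0%) and 19 in aged/anti-IL17A/F (38.0%), against 23.1%, 12.9% and 17.4% of protein-coding genes. With the lists reduced to 4169 peaks each, the counts were 13, 12 and 13, so that the difference between lists was 1 gene. With all peaks, 11 of the 50 genes (22.0%, against 11.4% of protein-coding genes) had a peak in every list and 26 (52.0%, against 74.8%) in none. Vcl, the actin linker vinculin, had a fold enrichment of 10.5 in adult, 8.36 in aged/control IgG and 10.6 in aged/anti-IL17A/F at its strongest peak. All 3 values exceeded every value at the 9 members.
Zyx, the focal adhesion protein zyxin, had 8.40, 5.68 and 6.28 in the same order, and Ilk, the integrin-linked kinase, 8.04, 3.41 and 4.95 at its start. Basement membrane collagens Col18a1 and Col4a2 had 6.78, 3.81 and 4.49, and 5.71, 5.11 and 6.52. Itgb6, an epithelial integrin β chain, had 4.90, 3.92 and 7.52. The Itgb6 value of aged/control IgG came from another site, 10935 bp downstream of the start, than those of the other lists, about 21 kb upstream.

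A peak in adult and none in aged/control IgG was found at 10 of the 50, which is 20.0% against 10.8% of protein-coding genes. At equal list size it was found at 4, and at 2.88% of protein-coding genes. With all peaks the 10 were Lamb1, Col7a1, Frem2, Dag1, Bcam, Cd151, Itgb5, Fermt1, Parva and Fbln1. Cd151, a tetraspanin partner of laminin-binding integrins, had 4.83 in adult and 3.14 in aged/anti-IL17A/F, at its start. Bcam, a receptor for laminin α5, had 3.40 and 3.02, and Frem2, a basement membrane protein, 4.01 and 3.12. Col7a1, the anchoring fibril collagen, had a very weak adult peak of 2.14 (percentile 0.768). Of the 10, 6 also had a peak in aged/anti-IL17A/F. No share over all such protein-coding genes is given here, so this count cannot be set against a background. Lama5, the laminin α5 chain, was the only gene of the list with a peak in aged/control IgG and none in adult, at 3.13.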

How the data were processed

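p65 ChIP–seq was done on epidermal cells of adult, aged/control IgG and aged/anti-IL17A/F mice. The 3 input libraries of the series were not analysed here. The authors trimmed reads with Trimmomatic (0.36 per the submitters' processing notes), aligned them to mm10, merged and deduplicated 4 mice per condition, reduced each pool to a common read number and ran MACS2 on it (q value threshold 0.01, extension of 300 bp). Whether inputs entered the calling is not given in the sources used here. Downsampling equalises read number but not the efficiency of the immunoprecipitation, and a peak near the threshold can be listed in 1 pool and missing in another with little difference in signal.

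The deposited lists hold coordinates and the summit, a score, the fold enrichment that the authors obtained as a ratio of pileup to local background, and the deposited −log10 p-value and −log10 q-value. Fold enrichment was used to rank peaks within a list, and −log10 q to filter them. The score and p-value were not used in any result.

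Each peak was assigned to the nearest curated RefSeq (GRCm38) start site of any gene, from its middle. Peaks overlapping by at least 1 bp were counted as shared. Shares have 95% Wilson intervals, which cover counting error only and treat peaks of the same gene as independent. Genes and lists were chosen with earlier results of these data known. From the 50 related genes, the text names the 5 with the strongest peak per list and those listed in exactly 1 of the pair adult and aged/control IgG, of which the latter are given with values for some. One of the genes so chosen is not reported here. Alternatives were stricter thresholds, equal numbers of peaks, other start sites, overlaps, motif windows and distances. Exchanging the adult list with that of aged/anti-IL17A/F was chosen after seeing the data. Promoter windows came from the RefSeq table.

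Python 3.11.15 was used with numpy 2.4.6, pandas 2.3.3, scipy 1.17.1, pysam 0.24.0 and matplotlib 3.10.9. Overlap was checked against bedtools 2.31.1, and overlap, assignment and motif steps were tested on simulated data.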

Additional observations from a re-analysis of the deposited data

How the results depend on the processing

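Of 81 recomputed values, 67 moved by at most 1.5 times or stayed within the interval of the reported value. The number of peaks at the 9 genes moved with the threshold: at a −log10 q of at least 10 it was 10 of 5650 in adult and 7 of 4133 in aged/anti-IL17A/F, and with equal numbers of peaks 7 and 6. With equal numbers, 13 of the related genes had a peak in adult, 12 in aged/control IgG and 13 in aged/anti-IL17A/F, and 0 of 4 adult peaks absent in aged/control IgG (0.0%) were present in aged/anti-IL17A/F, against 38.9% of all such peaks. With 1 mismatch allowed in the NF-κB consensus motif, 50% of adult, 50% of aged/control IgG and 53.8% of aged/anti-IL17A/F member peaks had a match, against 46.7%, 56.0% and 53.2% of all peaks and 8.57%, 8.24% and 8.74% of windows 2000 bp away. Peaks of other genes within 25 kb of a member start numbered 1 in adult, 0 in aged/control IgG and 0 in aged/anti-IL17A/F, and within 100 kb 20, 7 and 11. No paired analysis was possible because each condition is a single pooled list. Leaving out a replicate was likewise not possible. The limits are those of 3 pools: biological variation between mice is not measured, the read depth behind a peak is unknown, presence in a list is a threshold on signal, and the nearest start site need not be the gene a peak acts on.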

Other observations

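Peaks in aged/anti-IL17A/F alone were found at 2 of the 50 related adhesion genes (4.0%, against 1.49% of protein-coding genes), named here after their values were seen. Lamc1, the laminin γ1 chain, had a fold enrichment of 4.05 (percentile 60.0), and Ecm1, an extracellular matrix protein of the skin, had 2.94 (percentile 20.7). Other genes with a peak in every list included Col4a1, Hspg2, Tln1 and Tns4. Col4a1 had 5.48 in adult, 2.82 in aged/control IgG and 3.70 in aged/anti-IL17A/F, and Hspg2, which encodes perlecan, had 4.90, 3.03 and 3.91. Talin (Tln1), the activator of integrins, had 3.12, 2.79 and 3.98 at its start. Tns4 had 3.40 and 3.41 at a shared site in adult and aged/control IgG, and its strongest peak in aged/anti-IL17A/F, of 4.08, was at another site. All these values come from 1 pooled list per condition.

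Among the keratinocyte markers, Krt5 and Krt14, the keratins of basal cells, had a peak in adult (4.37 and 3.22) and in aged/anti-IL17A/F (3.21 and 3.91) and none in aged/control IgG. Krt1 had a peak in every list (6.00, 3.74 and 4.50), and Krt10 had one in adult (3.33) and aged/control IgG (2.58) and none in aged/anti-IL17A/F. Trp63, the transcription factor of stratified epithelia, had 8, 5 and 7 peaks in adult, aged/control IgG and aged/anti-IL17A/F.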
